A study of Mus musculus with 65 samples.

Results

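The 9 genes examined here encode the receptors TREM2 and CD33, the adaptors TYROBP and FCER1G, and the integrin chains CD11b (Itgam) and CD18 (Itgb2). The others encode the kinase SYK, the phospholipase PLCG2 and the phosphatase SHIP1 (Inpp5d). Together the 9 form a listed set of receptor, ITAM-adaptor and integrin genes. All 9 were found by symbol among the 50686 genes of the count table. The rule uses symbols alone.

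Bulk RNA from retinal homogenates of 65 adult C57BL/6J mice was sequenced in 16 groups. Retinal microglia were depleted with PLX5622, an inhibitor of CSF1R given in the diet, and were allowed to return after its withdrawal. The CD group received the control diet and is labelled vehicle (n = 5). The description of 1 of its mice is CD_2M and not CD with a number, and the REPOP60 mice are described as RP2M; CD_2M is listed last wherever the CD mice are given. The depletion groups received PLX5622 for 2, 5, 7, 10, 14 or 21 days (DEP2 to DEP21, 4 mice each and 3 in DEP5). The repopulation groups were taken 3, 5, 7, 10, 14, 21 or 60 days after the switch from PLX5622 to control diet (REPOP3 to REPOP60, 4 mice each and 6 in REPOP7). Systemic lipopolysaccharide (LPS), a bacterial trigger of inflammation, was given to mice with resident microglia (LPSCD, n = 3) and to mice of a PLX5622 and LPS group that the study describes as repopulated (LPSREPOP, n = 4). The day of repopulation at which LPSREPOP was taken is not given in the sources used here. All mice were wild type, and PLX5622 acts on every cell that depends on CSF1R, inside and outside the retina.

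TREM2 binds lipids, lipoproteins and debris at the microglial surface but has no signalling tail of its own. It pairs with TYROBP (DAP12), whose immunoreceptor tyrosine-based activation motif (ITAM) recruits SYK, which in turn activates PLCG2. FCER1G serves Fc receptors in the same way, the integrin of CD11b and CD18 can use both adaptors, and SHIP1 opposes the pathway. In the central nervous system most of these genes are read mainly in microglia and other myeloid cells.

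Most of these transcripts were rare in whole retina. Each mouse had between 5106429 and 8760443 counted reads (median 7944665), so that 3 counts, taken as the floor, corresponded to between 0.342 and 0.587 CPM, the reads of a gene scaled to its library total. In CD mice Trem2 had between 2 and 11 reads and Inpp5d, the most read gene, between 22 and 29. Days were therefore pooled into depletion (23 mice), REPOP3 to 7 (14 mice), REPOP10 (4 mice) and REPOP14 to 60 (12 mice). The summed CPM of 9 microglia markers (Cx3cr1, Tmem119, P2ry12, C1qa, C1qb, C1qc, Ctss, Selplg and Sall1) was 25.0 to 35.1 in CD, 0.251 to 3.06 during depletion, 0.617 to 2.27 at REPOP3 to 7, 3.29 to 9.48 at REPOP10 and 14.7 to 26.2 at REPOP14 to 60. Which markers to use was settled after the data were seen, and the size of the loss depends on it: a longer list kept more of its reads during depletion. In bulk RNA, fewer microglia and less RNA per microglia cannot be told apart. Intervals from reads cover counting error only.

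The sequences before a RefSeq start of 5 of the genes are shown because their transcripts span the range of responses described here, from Trem2, Cd33 and Itgam to Inpp5d and Plcg2. Each run holds the 250 bases before the RefSeq start on GRCm38.p6, written 5′ to 3′ on the strand of the gene. Capitals mark GAGGAA or its reverse complement TTCCTC, the core letters that the myeloid factor PU.1 recognises. They cover chr17:48346151-48346400 (plus) for Trem2, chr7:43533172-43533421 (minus) for Cd33, chr7:128062390-128062639 (plus) for Itgam, chr1:87620062-87620311 (plus) for Inpp5d and chr8:117498025-117498274 (plus) for Plcg2. The RefSeq start of Cd33 lies inside the longer GENCODE span given for that gene with its values.
Trem2: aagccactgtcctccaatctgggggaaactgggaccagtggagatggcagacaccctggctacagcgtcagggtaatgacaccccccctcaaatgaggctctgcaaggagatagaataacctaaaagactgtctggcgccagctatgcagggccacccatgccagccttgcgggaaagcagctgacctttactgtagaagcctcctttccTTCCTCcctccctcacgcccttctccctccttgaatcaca
Cd33: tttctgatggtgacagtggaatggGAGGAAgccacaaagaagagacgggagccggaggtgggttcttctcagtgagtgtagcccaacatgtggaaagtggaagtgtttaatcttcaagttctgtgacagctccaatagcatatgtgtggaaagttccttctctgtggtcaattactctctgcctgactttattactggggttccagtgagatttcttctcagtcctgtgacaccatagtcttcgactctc
Itgam: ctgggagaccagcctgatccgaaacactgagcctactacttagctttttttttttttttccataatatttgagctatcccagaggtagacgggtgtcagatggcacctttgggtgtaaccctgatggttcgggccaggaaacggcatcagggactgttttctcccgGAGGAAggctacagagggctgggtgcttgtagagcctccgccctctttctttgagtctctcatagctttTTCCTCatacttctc
Inpp5d: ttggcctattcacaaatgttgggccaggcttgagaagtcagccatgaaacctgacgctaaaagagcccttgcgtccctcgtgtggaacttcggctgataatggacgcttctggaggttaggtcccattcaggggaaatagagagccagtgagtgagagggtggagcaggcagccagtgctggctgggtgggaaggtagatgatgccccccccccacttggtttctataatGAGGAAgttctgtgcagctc
Plcg2: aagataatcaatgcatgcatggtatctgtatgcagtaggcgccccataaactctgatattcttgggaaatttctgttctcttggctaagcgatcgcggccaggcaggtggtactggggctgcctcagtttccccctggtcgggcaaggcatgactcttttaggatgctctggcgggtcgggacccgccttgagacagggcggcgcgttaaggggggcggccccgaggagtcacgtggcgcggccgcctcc
In all, 7 of the 9 genes had an entry in the RefSeq promoter table, with 8 promoters because Syk had 2 starts. No entry was found for Tyrobp and Itgb2. The 6 letters occurred on either strand in 5 of these 8 promoters (Trem2, Cd33, Itgam, Inpp5d and the downstream start of Syk). Of all 32851 promoters of this length, 23.3% held them. The longer GAGGAAGT, which contains the 6 letters, was present upstream of Inpp5d only among the 8, and in 2.44% of all promoters. A match of letters is a description and no binding was measured.

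Depletion removed almost all reads of the receptor, its main adaptor, the integrin alpha chain and CD33, while the shared enzymes stayed detectable in every pool. Of the 9 genes, 5 (Trem2, Tyrobp, Itgam, Itgb2 and Cd33) were lower in the depletion pool than in CD as differentially expressed genes (DEGs), defined in edgeR's quasi-likelihood test by a fold change of more than 1 on the log2 scale at a Benjamini-Hochberg false discovery rate (FDR) under 0.01. Of all 22767 genes tested, 0.193% were lower by the same rule. The median log2 fold change was -2.60 over the 9 genes, all of which were tested, and -0.00047 over all genes.

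Trem2 in the 5 CD mice was 0.658, 0.234, 0.630, 1.30 and 0.402 CPM. In the 23 depletion mice it ranged from 0 to 0.134 CPM (median 0), with 7 reads in all and none in 16 mice. The lowest CD mouse lay above the highest depletion mouse. In the fit the log2 fold change was -3.68 ± 0.49 (SE; edgeR FDR 4.11e-06), and the pooled level was 5.77% of CD. Trem2 lies at chr17:48346401-48354147 (GRCm38, plus strand).

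Tyrobp, the adaptor that carries the signal of TREM2, fell the most in the fit. Its CD values were 0.658, 0.938, 0.504, 1.06 and 0.536 CPM. Across depletion it had 3 reads in 23 mice, with 20 mice at 0 and a highest value of 0.122 CPM, so that the ranges did not overlap. The log2 fold change was -4.69 ± 0.44 (SE; edgeR FDR 7.97e-10). On pooled reads the level was 46.7 times lower than in CD, with a 95% counting interval of 14.5 to 239. The loss was present at the first time point: DEP2 had 0 Tyrobp reads in 4 mice. With the floor of 3 counts in place of 0, the pooled level was 0.0925 CPM, 8.10-fold below CD. Counting error is not included in this fold. Tyrobp lies at chr7:30413760-30417585 (plus strand).

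Fcer1g, the second ITAM adaptor, behaved differently from Tyrobp in level. Its CD mice had 1.19, 1.76, 1.76, 1.77 and 0.937 CPM, and the depletion mice ranged from 0.132 to 1.21 CPM (median 0.612), with reads in all 23. The ranges overlapped between 0.937 and 1.21 CPM. The log2 fold change of -1.11 ± 0.25 (SE) had an edgeR FDR of 0.0281 and did not pass the rule. The sample titles end in RE (39 mice) or re (26 mice), and Fcer1g in depletion against CD differed between them: the log2 fold change was -1.4997 (FDR 0.00754) in RE mice and -0.22 (FDR 0.935) in re mice, by the same edgeR test. The difference between the suffixes was not tested. Fcer1g lies at chr1:171229572-171234365 (minus strand).

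Itgam, the alpha chain of complement receptor 3, had 0.658, 0.469, 0.756, 0.942 and 0.536 CPM in CD. In depletion it had 5 reads in all, with 18 of 23 mice at 0 and at most 0.128 CPM, below every CD mouse. Its log2 fold change was -4.11 ± 0.45 (SE; edgeR FDR 5.37e-08). Itgam shares 3450 of its 5024 exonic bases with the same-strand gene model Gm49368, to which 0 reads were assigned. Reads in the shared bases may have been left uncounted, which makes the level of Itgam uncertain. It lies at chr7:128062640-128118491 (plus strand).

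Itgb2, the beta chain shared by the leukocyte integrins, fell less. CD mice had 0.790, 0.821, 0.378, 0.471 and 0.536 CPM, and depletion mice ranged from 0 to 0.385 CPM (median 0), with 15 reads in 11 mice. A DEP21 mouse (0.385 CPM) exceeded the lowest CD mouse. The log2 fold change was -2.60 ± 0.47 (SE; edgeR FDR 0.00150). Without CD replicate 2 the log2 fold change was -2.32 and the edgeR FDR 0.0402, so that Itgb2 was no DEG. Itgb2 lies at chr10:77530252-77565708 (plus strand).

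Cd33, an inhibitory Siglec that binds sialic acid, varied most among CD mice, at 0.263, 1.76, 0.504, 0.707 and 0.669 CPM. Depletion left 5 reads in 23 mice, with 18 at 0 and at most 0.134 CPM. No depletion mouse reached the lowest CD mouse. Its log2 fold change was -4.35 ± 0.48 (SE; edgeR FDR 5.45e-08). Cd33 lies at chr7:43524216-43544428 (minus strand).

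The enzymes downstream of the adaptors kept more of their reads. Syk had 0.922, 0.586, 1.64, 0.353 and 0.268 CPM in CD and 0 to 0.483 CPM in depletion (median 0.236), with overlapping ranges and a log2 fold change of -1.66 ± 0.44 (SE; edgeR FDR 0.142). Plcg2 had 1.05, 1.41, 2.27, 1.88 and 2.14 CPM in CD and 0.385 to 2.32 CPM in depletion (median 1.40), and its log2 fold change was -0.30 ± 0.24 (SE; edgeR FDR 0.869). Inpp5d had 3.42, 3.05, 3.65, 2.71 and 2.95 CPM in CD and 0.638 to 3.601 CPM in depletion (median 2.04), with a log2 fold change of -0.66 ± 0.19 (SE; edgeR FDR 0.271). None of these 3 met the rule, and depletion mice overlapped CD mice for each. Pooled, depletion stood at 32.2% of CD for Syk, 64.99% for Inpp5d and 81.2% for Plcg2. Syk lies at chr13:52583173-52648792, Plcg2 at chr8:117498291-117635142 and Inpp5d at chr1:87620312-87720507, all on the plus strand.

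**Figure D1:**
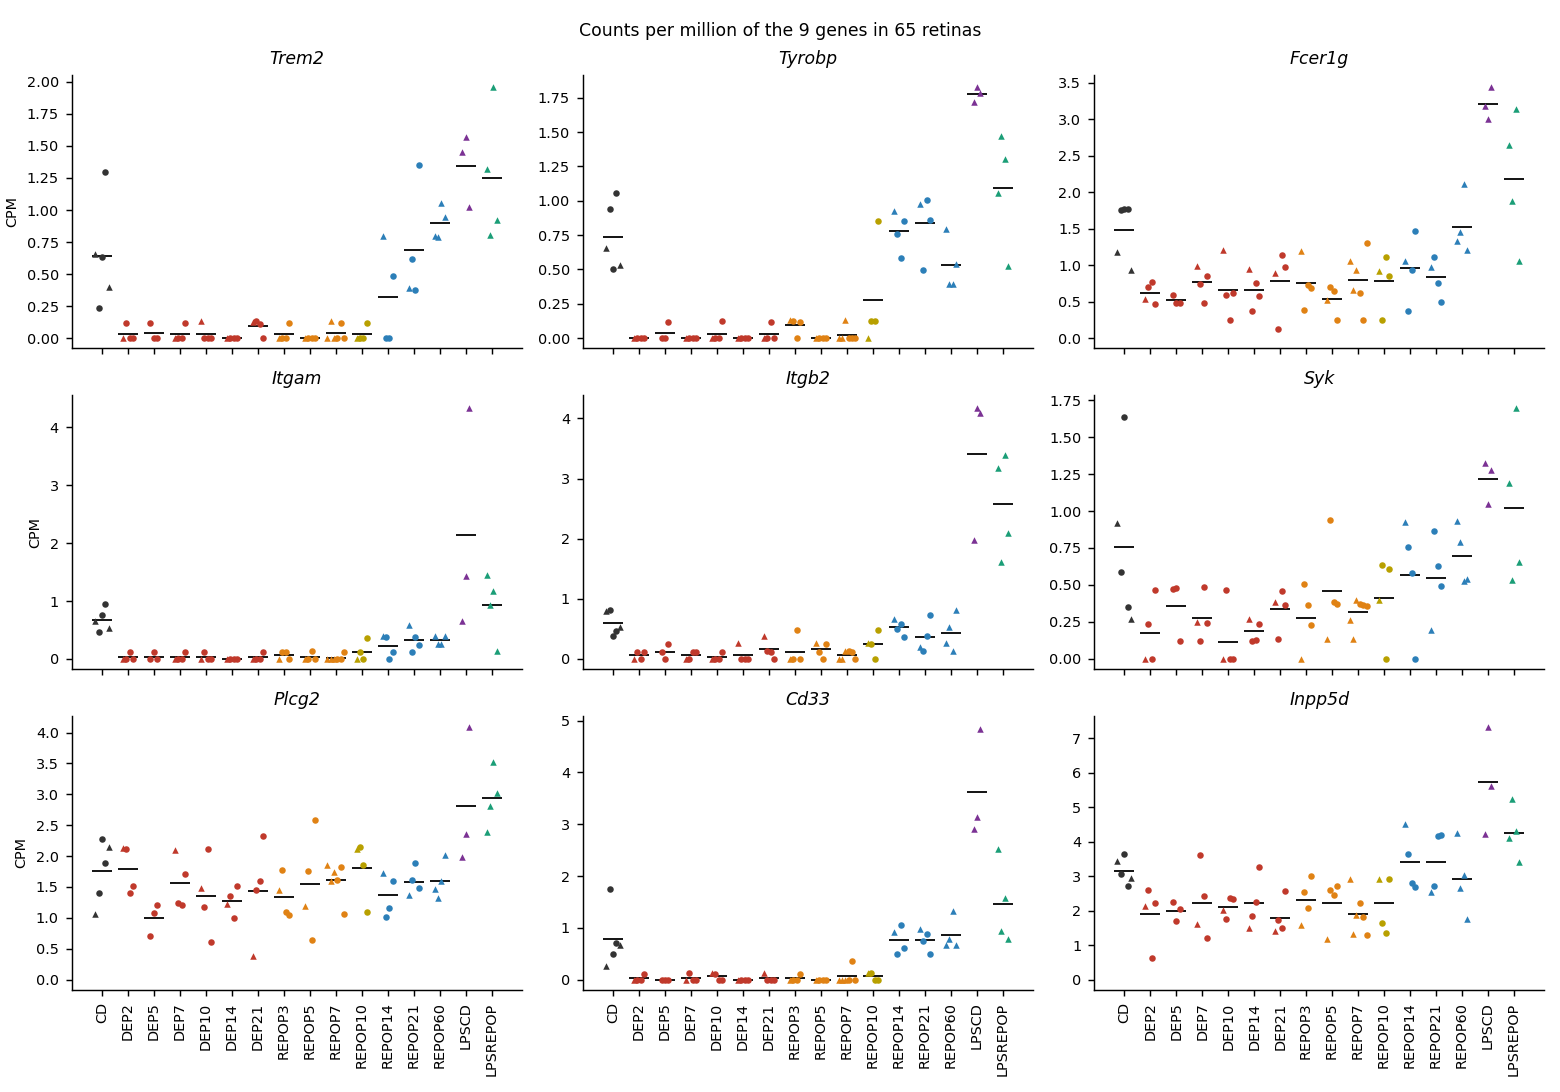
CPM of each gene (y axis, linear, own scale per panel) in every mouse of the 16 groups (x axis); circles are mice with titles ending in RE, triangles those ending in re, and black lines are group means. Trem2, Tyrobp, Itgam and Cd33 lie at or near 0 from DEP2 to REPOP7, whereas Plcg2 and Inpp5d keep reads in every mouse.

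Within the RE mice 5 of the 9 genes were lower DEGs in depletion, with Fcer1g in the place of Itgb2 (FDR 0.0116). Within the 2 CD and 5 depletion mice of the re suffix 0 were. Over all genes, 31 were DEGs in RE mice and 19 in re mice. In re mice the fitted log2 fold changes still included -5.23 for Tyrobp and Itgam (both FDR 0.0323), -2.998 for Trem2 (FDR 0.351) and -2.81 for Cd33 (FDR 0.453), by the same edgeR test. DESeq2 called 5 of the 9 genes in the whole pool, and 35 over all genes. At an unadjusted p under 0.05 in edgeR, 8 of the 9 passed, beside 1425 of all 22767 genes.

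The first week of repopulation brought few reads of these genes. At REPOP3 to 7, 4 of the 9 genes (Trem2, Tyrobp, Itgam and Cd33) were lower DEGs than in CD, against 0.113% of 22993 genes tested. Trem2 had 3 reads in 14 mice, Tyrobp 4, Itgam 4 and Cd33 4, with 11, 10, 10 and 12 mice at 0. Their fitted log2 fold changes against CD were -3.98 ± 0.56, -3.89 ± 0.50, -3.77 ± 0.49 and -4.03 ± 0.58 (SE), with an edgeR FDR between 2.65e-05 and 1.62e-04. The ratio of pooled reads to CD was 0.0414 for Trem2, with a counting interval of 0.00801 to 0.135. Trem2, Tyrobp and Itgam did not overlap with CD, and a single REPOP7 mouse with 3 Cd33 reads (0.365 CPM) exceeded the lowest CD mouse. Itgb2 had 12 reads in 14 mice and did not meet the rule (log2 fold change -2.32 ± 0.53 SE, edgeR FDR 0.0747). Within the suffixes, 1 gene (Tyrobp) was a DEG in RE mice and 0 in re mice, beside 14 and 9 over all genes.

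Against depletion itself, REPOP3 to 7 gave 0 DEGs among the 9 genes and 0% of 22512 genes tested in edgeR, of which 1825 had an unadjusted p under 0.05. Only 5 of the 9 passed the filter on low counts (Fcer1g, Itgb2, Syk, Plcg2 and Inpp5d), and 0 of them had an unadjusted p under 0.05. DESeq2 also called 0. Trem2, Tyrobp, Itgam and Cd33 had too few reads in both pools to be tested. For Trem2 the pooled level was 0.717 of depletion with a counting interval of 0.120 to 3.14, which does not exclude a 3-fold rise.

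At REPOP10 no gene of the 9 was a DEG against CD by edgeR, where 0.0754% of 23859 genes were lower. An unadjusted p under 0.05 was reached by 5 of the 9, beside 2916 of all genes tested (edgeR). DESeq2 called 0 of the 9, and 6 over all genes. Trem2 had 1 read in 4 mice and Cd33 had 2, and their log2 fold changes against CD were -3.89 ± 0.90 (FDR 0.0494) and -3.47 ± 0.79 (FDR 0.0459; SE, edgeR). The ratio of pooled reads to CD was 0.0484 for Trem2 (counting interval 0.00118 to 0.295) and 0.0786 for Cd33 (0.00913 to 0.3083). Both lay below every CD mouse.

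Tyrobp at REPOP10 was 0, 0.126, 0.123 and 0.851 CPM. Replicate 4 held 7 of its 9 reads and lay within the CD range, and the other mice lay below every CD mouse. The same mouse had the highest sum of the 9 microglia markers, 9.48 CPM against 3.29 to 4.10 CPM in the others, the highest Itgam (0.365 CPM) and the highest Itgb2 (0.486 CPM). It had 0.122 CPM of Trem2 and 0 of Cd33. The 5 monocyte markers summed to 3.57 to 11.0 CPM at REPOP10 and to 2.28 to 4.71 CPM in CD, and 3 of them had no read at REPOP10. The same sum was 2.40 to 15.3 CPM during depletion and 1.58 to 9.74 CPM at REPOP3 to 7. At REPOP10 only 1 of the 5 was tested, and it was no DEG against CD or depletion. Against depletion the log2 fold change of Tyrobp was 3.27 ± 0.68 (SE; edgeR FDR 0.0464), so that 0 of the 8 genes tested were DEGs, beside 0.00425% of 23508 genes that were higher. There, 3 of the 8 had an unadjusted p under 0.05, beside 3263 of the 23508 genes, and DESeq2 called 0. With the replicate number as a block, the count over all genes against CD was 36 in place of 20, and the count among the 9 stayed at 0.

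The genes lost in depletion were read again from REPOP14 on. At REPOP14 to 60, 5 of the 9 genes (Trem2, Tyrobp, Itgam, Itgb2 and Cd33) were higher DEGs than in depletion, against 0.23% of 22623 genes tested. This comparison shares its depletion mice with the one against CD. Tyrobp was 0.928, 0.755, 0.583 and 0.855 CPM at REPOP14, 0.979, 0.495, 1.01 and 0.860 CPM at REPOP21 and 0.798, 0.396, 0.397 and 0.538 CPM at REPOP60. Each of these 12 mice exceeded all 23 depletion mice, and the log2 fold change was 4.58 ± 0.36 (SE; edgeR FDR 2.09e-13). Cd33 was 0.928, 0.503, 1.05 and 0.611 CPM at REPOP14, 0.979, 0.743, 0.881 and 0.492 CPM at REPOP21 and 0.665, 0.793, 1.32 and 0.673 CPM at REPOP60. It also stood above every depletion mouse, with a log2 fold change of 4.16 ± 0.35 (SE; edgeR FDR 1.64e-12).

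Trem2 returned less evenly. REPOP14 mice had 0.796, 0, 0 and 0.489 CPM, REPOP21 mice 0.392, 0.619, 0.378 and 1.35 CPM, and REPOP60 mice 0.798, 0.793, 1.06 and 0.942 CPM. Both REPOP14 mice without a Trem2 read had Tyrobp (0.755 and 0.583 CPM) and Cd33 (0.503 and 1.05 CPM). Over the pool the log2 fold change against depletion was 3.40 ± 0.45 (SE; edgeR FDR 1.87e-06).

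Itgam rose by 2.69 ± 0.46 and Itgb2 by 2.21 ± 0.41 on the log2 scale against depletion (SE; edgeR FDR 3.46e-04 and 0.00111). Their values overlapped depletion: Itgam ranged from 0 to 0.587 CPM (median 0.321) and Itgb2 from 0.124 to 0.807 CPM (median 0.441). Without the REPOP21 mice Itgam was no DEG at nearly the same log2 fold change (2.60, edgeR FDR 0.0153), nor was Itgb2 without the REPOP14 mice (2.01, edgeR FDR 0.0748). Inpp5d had a log2 fold change of 0.72 ± 0.15 (SE; edgeR FDR 0.00536), under the fold required. Syk (1.28, FDR 0.0796), Fcer1g (0.52, FDR 0.326) and Plcg2 (0.07, FDR 0.913) did not meet the rule. Within suffixes 4 of the 9 were DEGs in RE mice and 3 in re mice, beside 32 and 33 over all genes.

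Compared with CD, 0 of the 9 genes were DEGs at REPOP14 to 60, beside 0.00433% of 23075 genes in edgeR, and DESeq2 called 0. Of the 23075 genes, 2125 had an unadjusted p under 0.05. Among the 9 the 1 such gene was Itgam, at a log2 fold change of -1.23 ± 0.39 (SE; edgeR FDR 0.510). Its ratio of pooled reads to CD was 0.421, with a counting interval of 0.236 to 0.749, and 1 of the 12 mice lay within the CD range. The other 8 genes had pooled levels between 73.5% (Fcer1g) and 104% (Inpp5d) of CD. For Fcer1g, Cd33, Trem2, Tyrobp, Syk and Inpp5d the direction of the mean differed between the title suffixes. Itgam, Itgb2 and Plcg2 had lower means than CD in both. Fcer1g was 1.76 CPM in CD and 0.856 CPM at REPOP14 to 60 on average in RE mice, and 1.06 and 1.36 CPM in re mice. Cd33 was 0.990 and 0.713 CPM in RE mice and 0.4664 and 0.894 CPM in re mice. Trem2 was 0.720 and 0.473 CPM in RE mice and 0.530 and 0.796 CPM in re mice. Tyrobp was 0.834 and 0.759 CPM in RE mice and 0.597 and 0.673 CPM in re mice. With 2 CD mice of the re suffix, these differences were not tested. A p that misses the threshold does not show equal levels. The ratio to CD had a counting interval of 0.604 to 1.61 for Trem2, 0.605 to 1.51 for Tyrobp and 0.649 to 1.56 for Cd33.

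**Figure D2:**
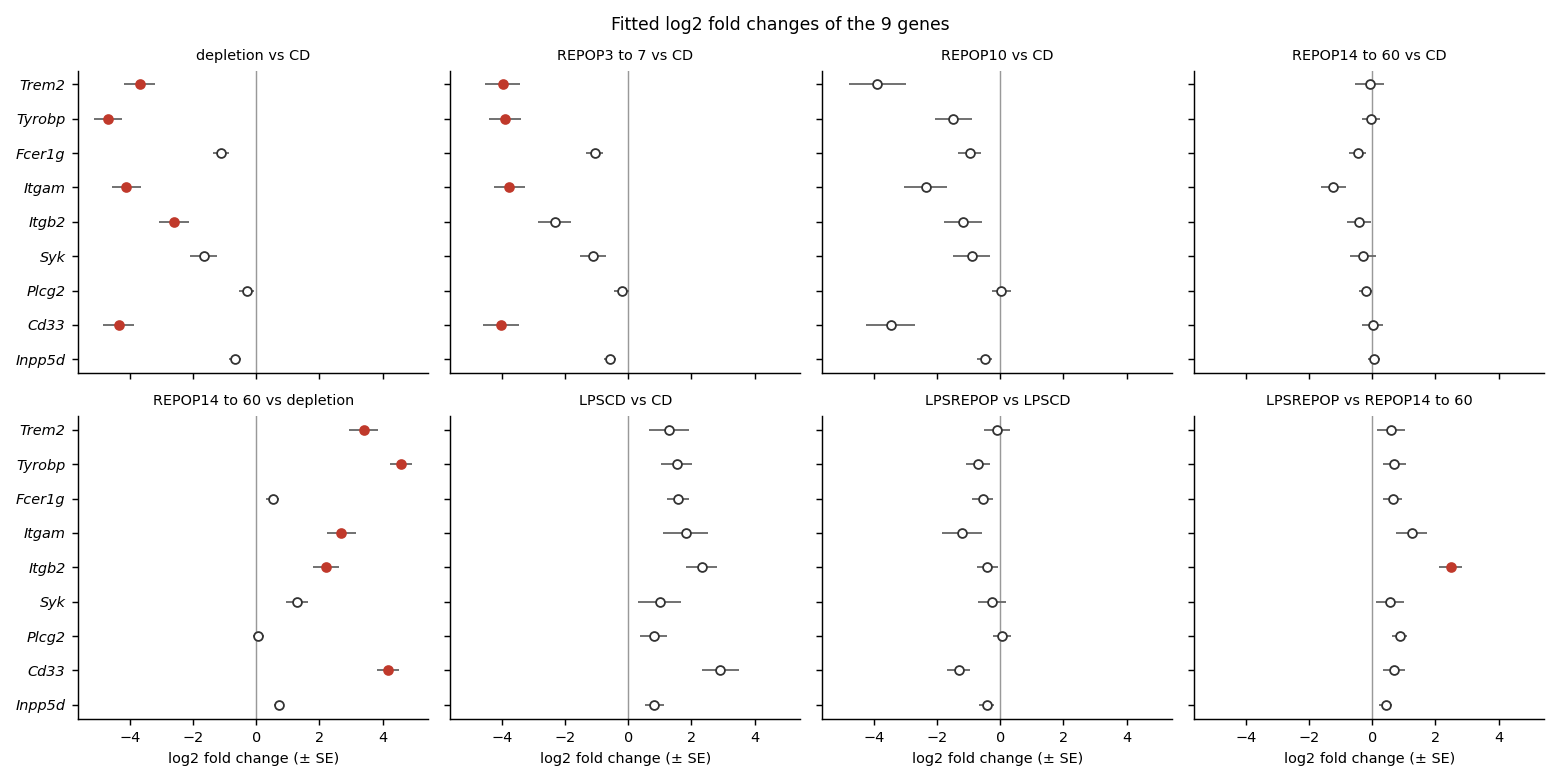
Fitted log2 fold changes (x axis) of the 9 genes (y axis) in 8 comparisons, a panel each; points are edgeR estimates, bars ± 1 SE, and filled red points DEGs. Depletion and REPOP3 to 7 sit left of 0, REPOP14 to 60 against CD gathers near 0 with Itgam lowest at -1.23, and Itgb2 is the filled point of LPSREPOP against REPOP14 to 60.

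The highest levels of these genes were found after LPS. The group mean was highest in LPSCD for 8 of the 9 genes and in LPSREPOP for Plcg2. Of 135 neighbouring steps in the 9 orders of 16 group means, 4 separated groups whose ranges did not overlap, namely LPSCD above LPSREPOP for Tyrobp and Cd33, LPSREPOP above CD for Itgb2, and REPOP14 above REPOP10 for Cd33. At the other end, every gene was lowest in a depletion group or at REPOP3 to 7. The share of all genes whose ranges part in this way, here or in the LPS comparisons below, is not given. Ranges of few mice can also part by chance.

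Cd33 and Itgb2 had the highest fitted log2 fold changes from CD to LPSCD, and which of them led depended on the fit. Cd33 in LPSCD mice was 2.91, 3.13 and 4.85 CPM, all above the highest CD mouse at 1.76 CPM. The log2 fold change was 2.91 ± 0.58 (SE; edgeR FDR 0.129). Itgb2 in LPSCD was 1.98, 4.18 and 4.08 CPM, again above all CD mice, with a log2 fold change of 2.33 ± 0.49 (SE; edgeR FDR 0.150). In the fit of all 16 groups the estimates were 2.31 for Cd33 and 2.34 for Itgb2, and on pooled reads Itgb2 was 5.71 times CD (counting interval 3.58 to 9.44) and Cd33 4.56 times (2.999 to 7.08). In the comparison of CD and LPSCD alone neither met the rule. Of the 9 genes 0 were DEGs, while 6 had an unadjusted p under 0.05 and DESeq2 called 0. Of all 23606 genes tested, 0% were DEGs in edgeR, 2486 had an unadjusted p under 0.05 and DESeq2 called 21. All LPSCD mice carried the suffix re, so that the suffix term rested on the CD mice alone. Without LPSCD replicate 1 both genes were DEGs (Itgb2 FDR 0.00202, Cd33 FDR 0.00486, edgeR).

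The adaptors and the receptor were higher in LPSCD by smaller steps that did not pass. Tyrobp was 1.72, 1.83 and 1.79 CPM and Fcer1g 3.17, 3.002 and 3.44 CPM, both without overlap with CD. Their log2 fold changes were 1.54 ± 0.48 and 1.57 ± 0.35 (SE; edgeR FDR 0.298 and 0.163). Trem2 at 1.46, 1.57 and 1.02 CPM overlapped CD replicate 4. Itgam was 0.661, 1.44 and 4.34 CPM, so that 1 of 3 mice held most of its reads. Inpp5d at 4.23, 7.31 and 5.61 CPM was above every CD mouse, and Syk (1.32, 1.04 and 1.28 CPM) and Plcg2 (1.98, 2.35 and 4.08 CPM) overlapped CD.

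In retinas labelled LPSREPOP, Itgb2 was the 1 DEG of the 9 genes against REPOP14 to 60, where 0.41% of 24152 genes were higher. Its values were 3.18, 1.61, 3.40 and 2.10 CPM, above all 12 REPOP14 to 60 mice (highest 0.807 CPM). The log2 fold change was 2.48 ± 0.37 (SE; edgeR FDR 5.29e-05). Without the REPOP60 mice, the only group of that pool with the re suffix throughout, the log2 fold change was 2.40 and the edgeR FDR 0.0495, so that Itgb2 was no DEG. Plcg2 was 2.38, 2.82, 3.53 and 3.02 CPM and also stood clear of the pool (1.01 to 2.02 CPM), at a log2 fold change of 0.86 ± 0.23 (SE; edgeR FDR 0.0288). Itgam had 1.25 ± 0.49 (SE; edgeR FDR 0.211), and the remaining genes lay between 0.42 and 0.70.

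LPSREPOP and LPSCD were compared directly within the re suffix. Cd33 was 2.52, 0.939, 1.57 and 0.788 CPM in LPSREPOP, below each LPSCD mouse, and Tyrobp was 1.06, 1.47, 1.31 and 0.525 CPM, also below each. The log2 fold changes were -1.32 ± 0.37 for Cd33 and -0.70 ± 0.37 for Tyrobp (SE; edgeR FDR 0.617 and 0.632). Of the 9 genes 0 were DEGs, as were 0% of 24500 genes in edgeR (1973 with an unadjusted p under 0.05, and 0 by DESeq2). Of the 9, 1 had an unadjusted p under 0.05, and DESeq2 called 0. The difference of the LPS responses uses LPSREPOP, REPOP14 to 60, LPSCD and CD together. It gave 0 DEGs among the 9 beside 0.00398% of 25132 genes (edgeR), and 0 calls by DESeq2. Of the 9, 1 had an unadjusted p under 0.05, beside 2528 of all genes. Cd33 had the largest difference, -1.33 ± 0.50 on the log2 scale (SE; edgeR FDR 0.368).

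Markers of several cell types were read beside the 9 genes after LPS. The 9 microglia markers summed to between 64.95 and 84.6 CPM in LPSCD and between 30.2 and 60.9 CPM in LPSREPOP. In bulk RNA such a sum cannot tell the number of microglia from the RNA per microglia. The 8 neutrophil markers, cells in which Itgam and Itgb2 are also abundant, summed to 6.09, 2.87 and 3.83 CPM in LPSCD, 9.14, 2.95, 16.3 and 2.89 CPM in LPSREPOP, 1.06 to 5.54 CPM in CD and 0.928 to 4.398 CPM at REPOP14 to 60. Against REPOP14 to 60, 4 of the 7 neutrophil markers tested were higher DEGs in LPSREPOP, beside 0.41% of all genes. In the same comparison 4 of 10 microglia, 2 of 5 endothelial and 1 of 5 perivascular macrophage markers were higher DEGs. Of 4 erythroid markers 1 was lower, beside 10 of all 24152 genes. In LPSCD against CD and in LPSREPOP against LPSCD, 0 of 7 neutrophil markers tested were DEGs, as were 0% of all genes. The median log2 fold change of these markers was 3.56 in LPSCD against CD and 0.74 in LPSREPOP against LPSCD. The LPSREPOP mice with the most neutrophil marker reads, replicates 1 and 3, also had the most Itgb2 (3.18 and 3.40 CPM). Replicates 2 and 4, at 2.95 and 2.89 CPM of neutrophil markers, still had 1.61 and 2.10 CPM of Itgb2. The part of neutrophils or of microglial number in these levels was not tested.

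**Figure D3:**
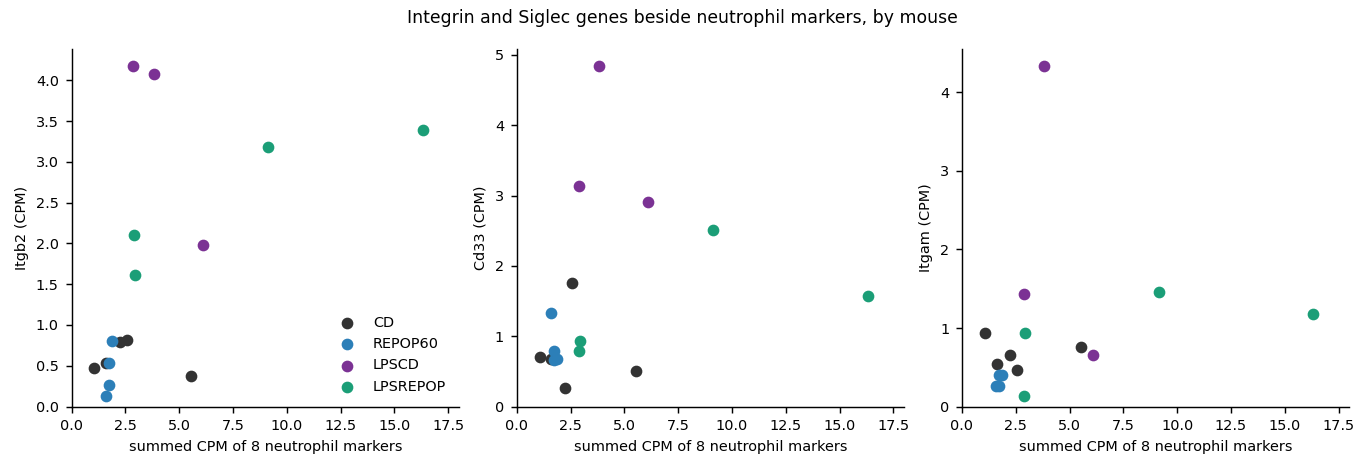
CPM of Itgb2, Cd33 and Itgam (y axes) against the summed CPM of 8 neutrophil markers (x axis) in each mouse of CD, REPOP60, LPSCD and LPSREPOP (colours). LPSREPOP replicates 1 and 3 lie far right at 9.14 and 16.3 CPM of markers, while LPSCD mice reach 4.18 CPM of Itgb2 at 2.87 CPM of markers.

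Levels of different genes were compared as FPKM, which divides by transcript length. In CD mice Fcer1g was the most abundant of the set at 1.62 to 3.40 FPKM, and Inpp5d ranged from 0.393 to 1.08 FPKM. Tyrobp ranged from 0 to 1.80 FPKM and was listed at 0 in both re mice although each had counted reads. Trem2 (0.0525 to 0.476 FPKM), Cd33 (0.0878 to 0.5003 FPKM) and Plcg2 (0.0532 to 0.249 FPKM) had lower levels, as had Itgam (0.0832 to 0.134 FPKM), Syk (0.0352 to 0.13004 FPKM) and Itgb2 (0.0397 to 0.135 FPKM). Fcer1g lay above the range of every gene of the set but Tyrobp, and each of the other genes overlapped its neighbours in level.

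The pattern over the 16 group means of log2(CPM + 1), adjusted for the title suffix, was compared with 17001 genes as a description. Tyrobp was most like the complement genes C1qb and C1qc (Pearson r 0.989 and 0.986) and Ctss (0.980), a lysosomal protease. Trem2 was most like Pld4 (0.973), C1qa (0.968) and C1qc (0.963). Cd33 was most like Ptgs1 (0.980), C1qc (0.978) and Inpp5d (0.974), and Inpp5d in turn like Cd33 (0.974), Tyrobp (0.972) and Ptgs1 (0.972). For the integrin chains, Itgam came closest to Havcr2 (0.976), Fcgr3 (0.975) and Cd53 (0.974), and Itgb2 to Fcgr3 (0.977), Slc11a1 (0.974) and Rac2 (0.971). Fcer1g was most like Itgam (0.973), Fcgr3 (0.965) and Cd53 (0.964), and Syk like Cyth4 (0.949), Csf1r (0.942) and C1qa (0.942). Plcg2 stood apart, with H2-Q4 (0.924), Tnfrsf1b (0.913) and Arhgef5 (0.912) nearest and r between 0.716 and 0.855 with the other 8 genes. All points share the same libraries, and the LPS groups lie at the upper end of most of these relations.

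Among 96 other genes of the pathway, 11 were DEGs in at least 1 comparison: 5 of 26 ligands and surface receptors, 2 of 18 kinases and phosphatases, 2 of 23 adaptors and effectors, 2 of 14 integrin genes and 0 of 15 TREM2-dependent genes. The share of all genes called in at least 1 comparison is not given here, so these pooled counts cannot show enrichment. In depletion against CD, 6 of 84 tested were lower and 0 higher, beside 0.193% of all genes that were lower. They were the Siglec receptor gene Siglech, the Fc receptor genes Fcgr3 and Fcgr2b, the phosphatase Ptprc (CD45), the exchange factor Vav1 and Apbb1ip, which links Rap1 to integrins. Siglech had 44 reads in CD and 0 in all 23 depletion mice. With the floor of 3 counts in place of 0 this was 68.4-fold lower, counting error not included. Fcgr3 had 23 reads in CD and 7 in depletion (log2 fold change -3.51 ± 0.52 SE, edgeR FDR 4.62e-05). Apbb1ip was 1.08 ± 0.41 CPM in CD (SD, n = 5) and 0.277 ± 0.163 CPM in depletion (SD, n = 23). The median log2 fold change was -0.07 over the genes tested and -0.00047 over all genes. Siglech had 1 read in the 14 mice of REPOP3 to 7, where 3 of 84 genes tested (Siglech, Fcgr3 and Vav1) were lower DEGs than in CD beside 0.113% of all genes, and 5 reads in the 4 mice of REPOP10.

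At REPOP14 to 60 against depletion 7 of 85 tested were higher and 0 lower, beside 0.23% of all genes that were higher: Siglech, Vav1, Fcgr3, Fcgr2b, Apbb1ip, the phosphatase gene Ptpn6 and Cd74, the invariant chain of antigen presentation. Cd74 rose from 0.224 ± 0.141 CPM (SD, n = 23) to 1.24 ± 0.86 CPM (SD, n = 12), with a log2 fold change of 2.10 ± 0.29 (SE; edgeR FDR 5.09e-06). In CD it was 0.392 ± 0.277 CPM (SD, n = 5), and it was no DEG between REPOP14 to 60 and CD (log2 fold change 1.45, edgeR FDR 0.510). Ptpn6 rose from 0.323 ± 0.140 to 0.936 ± 0.396 CPM (SD). Ptprc was 0.614 ± 0.388 CPM (SD, n = 12) and did not pass (edgeR FDR 0.0198).

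In LPSREPOP against REPOP14 to 60, 4 of 95 tested were higher, beside 0.41% of all genes. Icam1, an endothelial and leukocyte ligand of the CD18 integrins, went from 0.627 ± 0.319 CPM (SD, n = 12) to 4.57 ± 2.76 CPM (SD, n = 4), and rose by 3.09 ± 0.39 on the log2 scale (SE; edgeR FDR 3.58e-06). Fcgr3 and the membrane protein gene Ms4a6d were the next by FDR (0.00281 and 8.11e-04). The fourth, the small GTPase gene Rac2, was outside the 10 genes that the naming rule covers and was added after its values were seen (log2 fold change 2.54, edgeR FDR 0.00443). Of 15 TREM2-dependent microglia genes such as Cst7, Lpl and Spp1, 12 to 15 were tested in each of the 11 comparisons. In edgeR or DESeq2, 0 of them were DEGs in any comparison. Between 0 of 14 (LPSREPOP against LPSCD) and 7 of 15 (LPSREPOP against REPOP14 to 60) had an unadjusted p under 0.05 in edgeR. Over all genes 1973 of 24500 and 3383 of 24152 had one in these 2 comparisons. In depletion against CD the median log2 fold change was -0.04 over the 13 tested and -5.43 over 10 microglia markers. As a list, these genes did not fall with the microglia markers in whole retina. The 0 DEGs can therefore not show whether TREM2-dependent genes changed in microglia. Of the whole list of 96, 0 were DEGs in edgeR or DESeq2 at REPOP3 to 7 or REPOP10 against depletion, at REPOP10 or REPOP14 to 60 against CD, in LPSCD against CD, in LPSREPOP against LPSCD or in the difference of the LPS responses. In those 7 comparisons between 7 and 28 of the genes had an unadjusted p under 0.05 (edgeR). The highest count was 28 of 88 tested in LPSCD against CD, beside 2486 of 23606 over all genes. There the median log2 fold change was 0.34 over the list and 0.01 over all genes. Against CD, REPOP10 had 16 of 85 and REPOP14 to 60 had 13 of 87, beside 2916 of 23859 and 2125 of 23075. Against depletion, REPOP3 to 7 had 7 of 72 and REPOP10 10 of 80, beside 1825 of 22512 and 3263 of 23508. LPSREPOP against LPSCD had 9 of 94 and the difference 7 of 95, beside 1973 of 24500 and 2528 of 25132. Except against CD, the shares lay near those over all genes.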

How the data were processed

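Total retinal RNA of 65 mice in 16 groups was sequenced on a BGISEQ-500 (50 bp, single-end). Group and replicate number of each mouse were read from the sample labels. The deposited counts are raw, unscaled reads per gene, made by the authors with HISAT2 on mm10 and then HTSeq. FPKM, also deposited, came from StringTie in the authors' hands. Versions of these tools are not given in the sources used here. The labels name selection on poly-T beads and no step that marks strand. Of 50686 genes in the count table, 50376 had a symbol in GENCODE M21 on GRCm38. No 2 libraries were identical. Depth and the floor of 3 counts are given with the results.

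Each mouse is a replicate. The members and the gene lists were chosen with earlier results of these data known. The 11 comparisons were fitted over all genes in edgeR 4.0.16 (R 4.3.3) by the quasi-likelihood method, after TMM normalization, with pool and title suffix (RE or re) as terms. A gene entered if a share of 0.5 of the mice of either pool had at least 1 count. A DEG needed an FDR (Benjamini-Hochberg) under 0.01 and a log2 fold change above 1 in size. The study adjusted for batch, no label names a batch, and the suffix took that place. SE is the log2 fold change divided by the square root of F. CPM were scaled to the library total, and intervals on pooled reads are exact at 95%. All 9 members are named. Other pathway genes were named if they were DEGs in a comparison, at most 10 by smallest FDR, and likeness lists the 3 genes of highest Pearson correlation.

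Replicate numbers stand in the sample descriptions and belong to different animals. Deviations of same-numbered mice were correlated in depletion against CD (0.451 to 0.787 over 12347 genes) and in REPOP10 against CD (0.235 to 0.718) and depletion (0.185 to 0.895). After removal of the suffix no comparison had every correlation above 0.1, and replicate 1 carries the re suffix in most groups.

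Alternatives were DESeq2 1.42.0, the likelihood ratio test, RLE, filterByExpr, no filter, no suffix term, each suffix alone, all 16 groups in one fit, the replicate block, an FDR of 0.05 with no fold limit, deposited FPKM for levels, and leaving out mice or days. The list of 9 microglia markers (1 further marker is not reported here), the alternatives for the pathway lists and a fit without REPOP21 replicate 1 were added after the data were seen. The fit was tested on simulated data. Other tools were Python 3.11.15, numpy 2.4.6, pandas 2.3.3, scipy 1.17.1 and matplotlib 3.10.9.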

Additional observations from a re-analysis of the deposited data

Results flagged for a closer look

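In groups of 4 to 6 mice the highest or lowest mouse was compared with the rest by Dixon's gap ratio at the 95% level, over 117 pairs of gene and group. That level is meant for continuous values, and many of these are counts near 0. Where 1 mouse had reads and the others had none, the ratio was 1 whatever the number of reads. The number marked can therefore not be set against a rate of chance. In all, 28 pairs stood out.

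A single read set apart the highest mouse for Trem2 in DEP2, DEP7, DEP10, REPOP3 and REPOP10, for Tyrobp in DEP10, DEP21 and REPOP7, for Itgam in DEP2, DEP7, DEP10, DEP21, REPOP5 and REPOP7, for Itgb2 in DEP10 and for Cd33 in DEP2, DEP7, DEP21 and REPOP3 (1 read each). A mouse with 0 reads was the lowest for Trem2 in DEP21 (replicate 4) and for Tyrobp in REPOP3 (replicate 3), where the others had 1 read each. All of these lie under the floor of 3 counts.

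The other 7 had more reads. Tyrobp in REPOP10 replicate 4 had 7 reads. Cd33 in REPOP7 replicate 5 had 3 reads and its group mates 0. Itgb2 had 4 reads in REPOP3 replicate 3 and 2 reads in DEP14 replicate 1, with 0 in the other mice of those groups. Syk in DEP10 replicate 2 had 4 reads against 0. Plcg2 in REPOP7 replicate 6 and Inpp5d in REPOP5 replicate 1 were the lowest of their groups, each at 9 reads.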

How the results depend on the processing

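Among the 9 genes, the 5 DEGs of depletion against CD became 0 with filterByExpr and 0 in re mice only, the 4 of REPOP3 to 7 against CD became 0 with filterByExpr, 1 in RE mice and 0 in re mice, and the 5 of REPOP14 to 60 against depletion became 0 with filterByExpr and 3 in re mice. Here filterByExpr keeps 2 of the 9 (Plcg2 and Inpp5d), and each suffix has fewer mice. In REPOP10 against CD, 0 became 2 at an FDR of 0.05, with the likelihood ratio test and without a gene filter (Trem2 and Cd33). In REPOP10 against depletion 0 became 1 at an FDR of 0.05 and in the fit of all 16 groups (Tyrobp). In LPSCD against CD 0 became 1 without the suffix term (Itgb2) and 2 with the likelihood ratio test, without a gene filter, in the fit of all 16 groups and with the replicate block (Cd33 and Itgb2), and in LPSREPOP against REPOP14 to 60 Plcg2 joined at an FDR of 0.05, giving 2. The cause was not tested.

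The replicate block changed no other call among the 9. In LPSCD against CD, where it gave 2, numbers did not pair the mice (correlations -0.124 to 0.00767). Leaving out mice or days gave 4 to 5 member DEGs in depletion against CD, 4 to 4 at REPOP3 to 7 against CD, 4 to 5 at REPOP14 to 60 against depletion, 0 to 2 in LPSCD against CD (2 without LPSCD replicate 1) and 0 to 1 in LPSREPOP against REPOP14 to 60 (0 without the REPOP60 mice). No member reversed in log2 fold change where a fit called it.

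Over all genes, DEGs in LPSCD against CD numbered 0, but 39 without the suffix term, 21 with DESeq2, 58 with the likelihood ratio test, 188 without a gene filter, 2 with RLE, 11 at an FDR of 0.05, 194 with the block, 237 in the fit of 16 groups and 0 to 246 when a mouse was left out (246 without LPSCD replicate 1). In depletion against CD the 44 became 10 with filterByExpr and 19 in re mice. At REPOP3 to 7 against CD the 26 became 10 with filterByExpr, 14 in RE and 9 in re mice, 40 at an FDR of 0.05, 40 with the likelihood ratio test and 17 with the block. At REPOP10 against CD the 20 became 6 with DESeq2, 87 at an FDR of 0.05, 9 with 16 groups, 12 with filterByExpr, 0 without the suffix, 34 with the likelihood ratio test, 65 without a filter, 36 with the block and 0 to 45 when a mouse was left out (0 without REPOP10 replicate 2 or CD replicate 2, 3 or 4). REPOP10 against depletion (1) gave 0 with DESeq2 and filterByExpr, 21 at an FDR of 0.05, 9 with 16 groups, 4 with the likelihood ratio test, 2 without a filter and 1 to 6 with mice or days left out. REPOP14 to 60 against CD (1) gave 0 with DESeq2, 16 groups, no suffix and the block, 7 at an FDR of 0.05, 4 in RE and 6 in re mice, 2 with the likelihood ratio test, 16 without a filter and 0 to 7 with mice or days left out. REPOP14 to 60 against depletion (52) gave 105 at an FDR of 0.05, 6 with filterByExpr, 32 in RE and 33 in re mice. LPSREPOP against REPOP14 to 60 (109) gave 660 at an FDR of 0.05, 169 without a filter, 70 with the block and 18 (without the REPOP60 mice) to 166 (without LPSREPOP replicate 4) when mice or days were left out. REPOP3 to 7 against depletion (0) gave 3 at an FDR of 0.05 and 1 in re mice, LPSREPOP against LPSCD (0) gave 18 with 16 groups, 1 without a filter and 0 to 86 when a mouse was left out (86 without LPSCD replicate 1), and the difference of LPS responses (1) gave 0 with DESeq2, filterByExpr, no suffix, the block and re mice, 3 with 16 groups and the likelihood ratio test, 51 without a filter and 0 to 154 with mice or days left out (154 without LPSCD replicate 1).

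Of the pathway lists, ligands and receptors (5 genes called in any comparison) gave 8 at an FDR of 0.05, 3 with DESeq2 and 0 with filterByExpr; kinases and phosphatases (2) gave 0 with filterByExpr; adaptors and effectors (2) gave 5 at an FDR of 0.05, 4 with the likelihood ratio test and 16 groups, and 0 with DESeq2 and filterByExpr; integrins (2) gave 5, 4, 4 and 1 at an FDR of 0.05, with the likelihood ratio test, 16 groups and filterByExpr; TREM2-dependent genes (0) gave 3 at an FDR of 0.05, 1 without the suffix and with the likelihood ratio test, and 2 without a filter and with the block.

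Of the levels as a percent of CD or REPOP14 to 60, 146 moved by less than the spread between mice and 16 by more, in re mice only or with FPKM. Low reads limit most genes.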
